A study of Sus scrofa and Rattus norvegicus with 8 samples.

Results

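Immediate early genes are the genes a cell can transcribe within minutes of a stimulus, without first making new protein. Levels of 10 of them (FOS, FOSB, JUN, JUNB, EGR1, ATF3, IER2, IER3, DUSP1 and ZFP36) were described in subcutaneous fat of 6 pigs. The genes were chosen by name, and all 10 had an Ensembl ID in the pig table, out of 25880 IDs. The animals were adult female Bama pigs, a Chinese miniature breed, aged 2 years, and the tissue was the upper layer of the backfat. No treatment or genotype separated the pigs, so they form 1 group without a control and no test between groups was possible. Pigs of the study had not been fed on the night before slaughter, and no time between death and sampling of the backfat was given in the sources used here. The 2 rat libraries of the series (female SD rats aged 32 weeks, inguinal fat) were not used, because 0 rat IDs could be given a gene symbol.

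These genes share a mode of control. Kinase cascades and calcium or stress signals act on transcription factors already present in the nucleus, such as serum response factor (SRF), its partner ELK proteins and CREB, and the resulting mRNAs are usually short-lived. FOS and JUN proteins pair to form the AP-1 transcription factor, EGR1 is a zinc finger transcription factor, and DUSP1 and ZFP36 close the loop by dephosphorylating MAP kinases and by destabilizing AU-rich mRNAs. In solid tissues the same genes are known to respond to handling, ischaemia and dissociation as well as to hormones.

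Most of the members were compact genes. In the RefSeq models of Sscrofa11.1 their longest transcripts had a median of 2 exons (1 to 5), against 7 exons over 20648 genes, and a median GC content of 59.6% against 50.9%. JUN, JUNB and IER2 had 1 exon each. JUNB (chr2:66214086-66219435, minus strand) and IER2 (chr2:65909638-65912491, minus strand) lay 302 kb apart on the same chromosome, and the other 8 members were FOS on chromosome 7 (98449508-98451971, plus strand), FOSB (51836780-51844531), JUN (153686425-153687635) and ZFP36 (48063732-48066235) on the plus strand of chromosome 6, EGR1 on chromosome 2 (140440829-140445302, plus strand), ATF3 on chromosome 9 (130772259-130829678, minus strand), IER3 on chromosome 7 (23265560-23266905, minus strand) and DUSP1 on chromosome 16 (51457924-51461095, plus strand).

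The 1000 bases before the first coding base of each gene were searched on both strands for the motifs through which this class is known to be switched on. The windows of FOSB, JUNB, ATF3 and IER2 lay wholly inside the annotated gene, so the bases before its annotated start were not searched for them. A CArG box, the element that SRF binds (CC and GG around a run of A and T), stood in 3 of the 10 windows, those of FOS, FOSB and EGR1, against 5.14% of 20628 windows of all genes. EGR1 had 5 of them, at 731, 693, 677, 409 and 387 bases before the start codon. The full cyclic AMP response element TGACGTCA, which CREB and ATF proteins bind, stood only in the DUSP1 window among the 10, against 2.21% of all windows. TGANTCA, a broad form of the AP-1 motif with any base at N, was in 0 of the 10 windows (23.6% of all). TATAAA was in 5 of the 10 (40.6% of all). The CArG boxes and the DUSP1 element are shown here because the members that carry them are followed below. Capitals mark the motif, each stretch is read 5′ to 3′ on the plus strand of Sscrofa11.1 (RefSeq), and a match describes letters, not a bound site. The FOS and DUSP1 stretches lie upstream of the annotated gene start, and those of FOSB and EGR1 inside the annotated gene, before its first coding base.
FOS, chr7:98449042-98449071: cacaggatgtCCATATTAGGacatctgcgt
FOSB, chr6:51837436-51837465: gcgccgagctCCTTATATGGctaattgcgt
EGR1, chr2:140440976-140441005: cccggaaacgCCATATAAGGagcaggaagg
EGR1, chr2:140441014-140441043: ccggaaccacCCTTATTTGGgcagcgcctt
EGR1, chr2:140441030-140441059: ttgggcagcgCCTTATTTGGagcgccccga
EGR1, chr2:140441298-140441327: gccggtcttgCCATATTAGGgcttcctgct
EGR1, chr2:140441320-140441349: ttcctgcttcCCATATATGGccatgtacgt
DUSP1, chr16:51457861-51457890: ggcagggcgggTGACGTCAccacaccggtc

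Short life of these mRNAs is commonly linked to AU-rich elements of the 3′ UTR. Of the 9 members whose model has a 3′ UTR (the FOS model ends at its stop codon), 7 held the core ATTTA, against 61.9% of 18740 genes, and 2 held the longer TTATTTATT that ZFP36 protein is known to bind, against 6.81% of those genes. The JUN model has a 3′ UTR of only 25 bases, so it could hardly show either. The 2 longer elements, in capitals, belonged to both feedback genes.
DUSP1, base 419 of its 3′ UTR: ggacttgattTTATTTATTtttgtgtcgg
ZFP36, base 493 of its 3′ UTR: tatgacgactTTATTTATTctaatagatt

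The measure deposited for each gene is TPM, a transcript abundance corrected for length on a total that is the same for every library. The named nuclear genes held 24.1% to 26.3% of that total in replicates 1, 2, 3 and 6, but 3.34% in replicate 4 and 4.73% in replicate 5. Mitochondrially encoded genes took 10.8% to 21.2% in the first 4 and 0.209% and 0.298% in those 2. Each gene's TPM was therefore also divided by the named nuclear sum of its library, on a total of 1000000, and is called rescaled TPM. That multiplied the values by 3.80 to 4.15 in the first 4 libraries, by 29.9 in replicate 4 and by 21.1 in replicate 5. Read numbers are not recoverable from TPM, so depth is unknown, and the error given is the SD over 6 pigs. Adipocyte markers were high in every library, with ADIPOQ at 2437 to 3746 rescaled TPM and PLIN1 at 1247 to 2137 in the libraries labelled as adipose tissue. In bulk tissue, fewer cells of a type and less RNA per cell cannot be told apart.

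**Figure D1:**
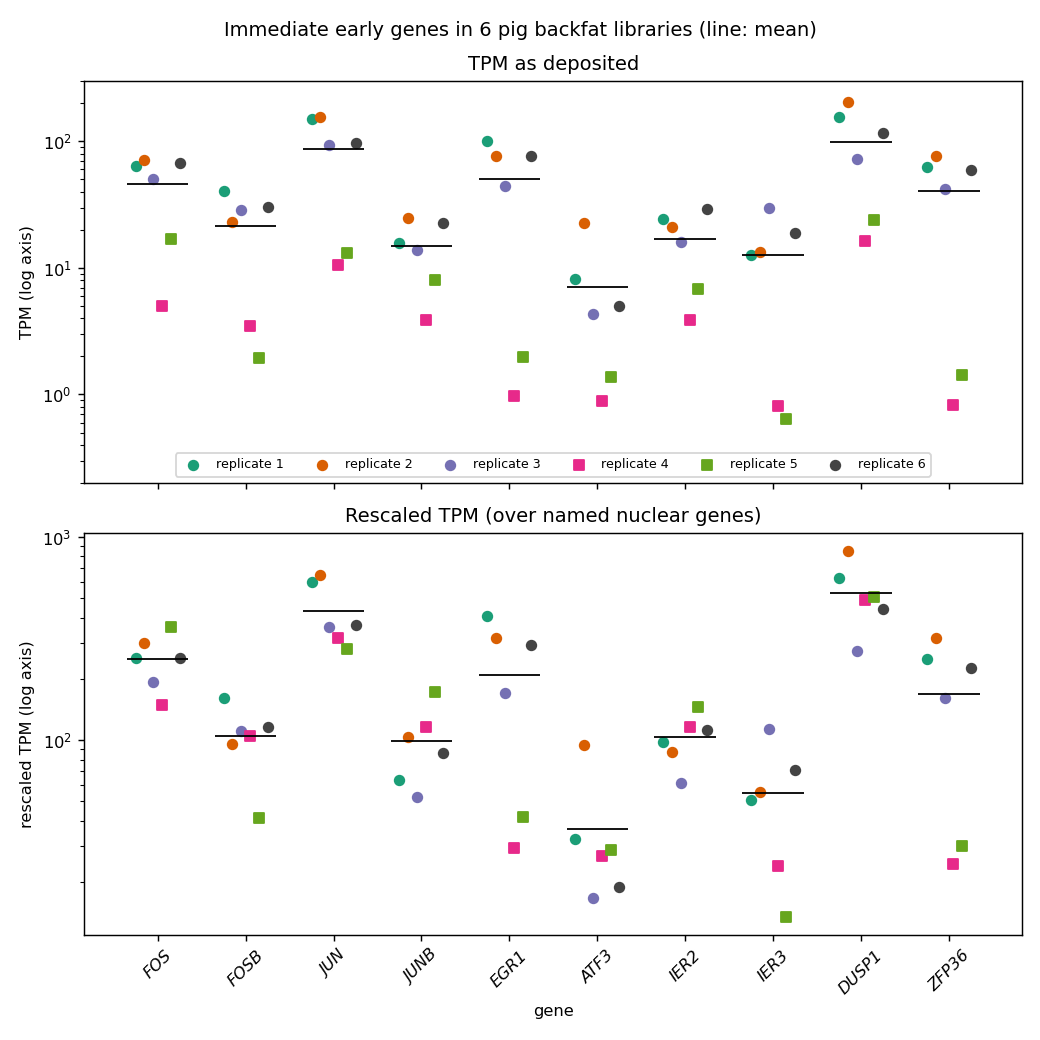
Levels of the 10 immediate early genes in each of 6 pig libraries, as deposited TPM (upper panel) and rescaled TPM (lower panel), both on log axes, with 1 point per pig, squares for replicates 4 and 5 and a line at the mean. All 10 genes have both squares below the 4 circles in the upper panel, but only JUN, EGR1, IER3 and ZFP36 do in the lower panel, where both squares of JUNB and IER2 stand above the circles.

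All 10 genes were above 0 TPM in all 6 pigs. Their mean rescaled TPM ran from 36.3 (ATF3) to 530.2 (DUSP1), with a median of 136, against 25.5 over the 12130 named nuclear genes whose mean over the pigs reached 1 rescaled TPM. Summed over the members, rescaled TPM was 2540.0 in replicate 1, 2858 in replicate 2, 1512 in replicate 3, 1398 in replicate 4, 1615 in replicate 5 and 1985 in replicate 6, which is 0.140% to 0.286% of the named nuclear total. DUSP1 (530.2 ± 191 rescaled TPM, SD, n = 6), JUN (428 ± 154) and FOS (251 ± 74.4) were the most abundant. They were followed by EGR1 (209.6 ± 154), ZFP36 (168 ± 120), FOSB (105 ± 38.5), IER2 (103 ± 28.3), JUNB (98.6 ± 42.7), IER3 (54.6 ± 35.5) and ATF3 (36.3 ± 29.0). Neighbours in this order differed by less than the larger of their SDs, apart from JUN and FOS and from JUNB and IER3.

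Among the AP-1 genes, FOS, the classical marker of a recent stimulus, was at a deposited TPM of 63.4, 71.9, 50.4, 4.97, 17.0 and 66.9 in replicates 1 to 6. On the rescaled scale it was at 254, 298, 193, 149, 359 and 254. Replicate 5 then had the highest and replicate 4 the lowest value, so the pair of libraries with few named nuclear transcripts stood at opposite ends for FOS. FOSB, a FOS relative that also pairs with JUN, had a deposited TPM of 40.2, 23.1, 28.9, 3.48, 1.95 and 30.4 and a rescaled TPM of 161, 95.7, 110.3, 104, 41.1 and 115. Replicate 1 was the highest and replicate 5 the lowest, and replicate 4 lay within the range of the other libraries.

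JUN, the most abundant of the AP-1 genes among the members, had a deposited TPM of 150.2, 155, 93.8, 10.6, 13.2 and 97.0. Its rescaled TPM was 601, 644, 359, 318, 279.5 and 368, so replicates 1 and 2 stood apart from a group of 4 lower libraries. JUNB, which can hold back JUN activity, took another order: 15.8, 24.8, 13.8, 3.88, 8.10 and 22.6 as deposited TPM and 63.2, 103, 52.6, 116, 171 and 85.9 as rescaled TPM. Both replicates 4 and 5 were above the other 4 libraries for JUNB on the rescaled scale, and both were below them for JUN. Among replicates 1, 2, 3 and 6 alone, both genes were highest in replicate 2 and lowest in replicate 3. For JUN the low place rested on 359 against 368 in replicate 6, and it changed with the scaling. When each library was centred on its median gene, JUN was at 367 in replicate 3 and 341 in replicate 6.

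ATF3, a stress-induced partner of JUN proteins, had a deposited TPM of 8.17, 22.7, 4.35, 0.894, 1.37 and 4.97. Its rescaled TPM of 94.2 in replicate 2 was above the 16.6 to 32.7 of the other 5 pigs, among which replicates 4 and 5 (26.8 and 28.8) were in the middle. ATF3 had the largest coefficient of variation of the members (CV, the SD divided by the mean), 0.798. Over replicates 1, 2, 3 and 6 alone, its CV was 0.898. This spread rested on replicate 2, without which the CV of ATF3 was 0.274.

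EGR1, whose window held 5 CArG boxes, showed the widest range of the 10. It was at a deposited TPM of 101, 76.7, 44.6, 0.980, 1.97 and 77.0. Rescaled TPM was 406, 318, 171, 29.3, 41.6 and 292, so the highest value was 13.8 times the lowest and replicates 4 and 5 lay far below the other 4 pigs. FOS and FOSB, the other members with a CArG box, did not share this order. The mean of replicates 4 and 5 was 8.36-fold lower than that of the other 4 for EGR1 and 1.66-fold lower for FOSB, and the ratio was 1.02 for FOS.

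IER2 and IER3 are small early response genes, the first nuclear and linked to cell movement, the second linked to survival under stress. IER2 had a deposited TPM of 24.5, 21.0, 16.1, 3.86, 6.86 and 29.5, and a rescaled TPM of 98.1, 87.2, 61.4, 115, 145 and 112. It had the smallest CV of the members (0.274), and replicates 4 and 5 were its 2 highest libraries, as for JUNB. IER3 was at 12.6, 13.4, 29.5, 0.805, 0.639 and 18.8 deposited TPM and at 50.4, 55.5, 113, 24.1, 13.5 and 71.5 rescaled TPM. It was the member with its highest value in replicate 3, the pig in which 8 of the other 9 were lowest among replicates 1, 2, 3 and 6.

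DUSP1, the MAP kinase phosphatase, had a deposited TPM of 156, 204, 72.0, 16.4, 23.9 and 117. On the rescaled scale it was at 623, 845, 275, 490.0, 506 and 442, with replicate 2 highest, replicate 3 lowest and replicates 4 and 5 between them. ZFP36, which codes for tristetraprolin, had a deposited TPM of 62.7, 76.3, 42.2, 0.823, 1.42 and 59.3. Its rescaled TPM was 251, 317, 161, 24.6, 30.1 and 225, so replicates 4 and 5 were again far below the rest. DUSP1 and ZFP36, which both carry the longer AU-rich element, thus differed in these 2 libraries: their mean was 1.10-fold lower than that of the other 4 for DUSP1 and 8.71-fold lower for ZFP36.

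Deposited TPM put both replicates 4 and 5 below the other 4 pigs for 10 of 10 members, but also for 98.2% of the 12130 genes, so the deposited order of these libraries says nothing particular to the members. After rescaling, 4 of 10 members (JUN, EGR1, IER3 and ZFP36) had both libraries below the others, against 50.1% of all genes, and 2 of 10 (JUNB and IER2) had both above, against 10.4%. These counts were chosen after the values were seen. The median ratio of replicates 4 and 5 to the other 4 was 0.646 over the members and 0.681 over all genes, but single members ran from 0.115 (ZFP36) to 1.89 (JUNB). When each library was centred on its median gene, JUN no longer had both libraries below the others (394 and 359 in replicates 4 and 5, against 341 to 601), and the share of all genes below dropped to 32.8% while the share above was 23.0%. EGR1, IER3 and ZFP36 stayed below and JUNB and IER2 above under 3 other scalings. These were median-centring, quantile normalization and removal of a trend with transcript length and GC content. JUN was also below under the last 2. The shares of all genes below and above were 25.8% and 27.4% with quantile normalization, and 28.4% and 22.9% after removal of the trend. The ratio of EGR1 was 0.160, 0.163 and 0.187 under the 3 scalings, in that order, and that of ZFP36 was 0.153, 0.161 and 0.136. The ratio of JUNB was 1.89 rescaled, 2.52 with median-centring and 3.70 after removal of the trend. That last value depends on a JUNB model of 5350 bases, of which 1044 were coding. The side of 1 on which the ratio fell depended on the scaling for FOSB (0.603 rescaled, 1.04 after removal of the trend) and DUSP1 (0.911 and 1.14), whereas FOS ran from 1.02 to 1.36 and ATF3 from 0.685 to 0.995 over the 4 scalings.

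**Figure D2:**
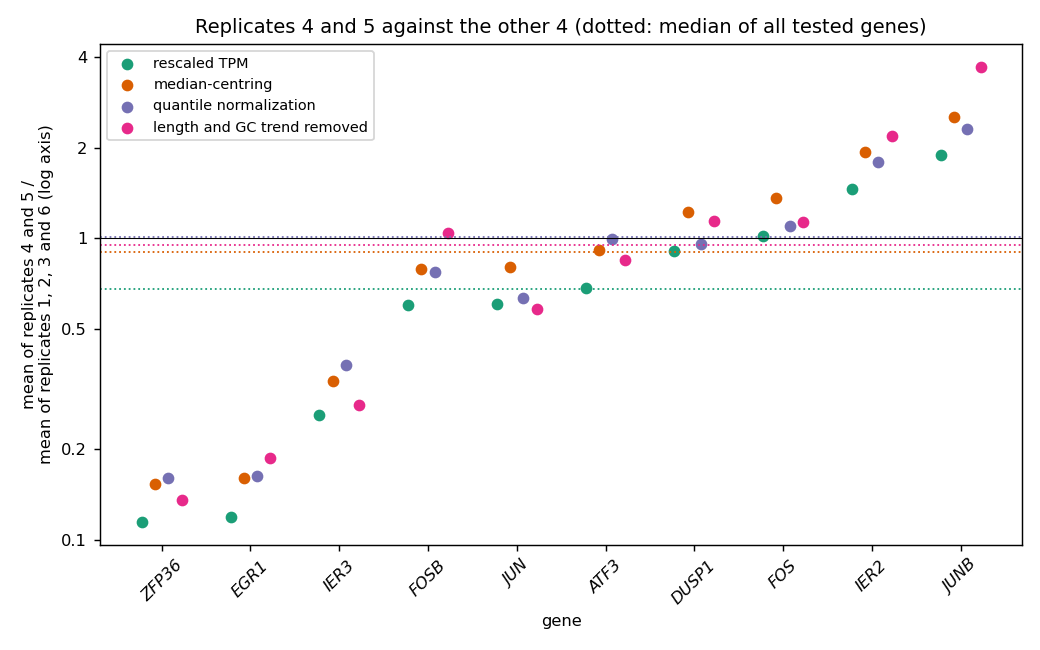
Mean of replicates 4 and 5 divided by the mean of replicates 1, 2, 3 and 6 (log axis) for each of the 10 genes under 4 scalings, with dotted lines at the median of all genes under the same scaling. ZFP36, EGR1 and IER3 stand below 0.4 and IER2 and JUNB above 1.4 under each of the 4 scalings.

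Marker genes of cell types were set beside this split. On the rescaled scale both libraries were below the other 4 for 50.1% of all genes. Among markers with a mean of at least 1 rescaled TPM, this held for 6 of 7 endothelial and 6 of 10 macrophage markers. It also held for 5 of 9 smooth muscle and pericyte, 3 of 7 lymphoid and 5 of 9 stromal markers. For adipocyte, red cell and neutrophil markers the counts were 3 of 9, 1 of 3 and 0 of 3. Summed rescaled TPM in replicates 4 and 5 was 706 and 842 for 7 of 9 endothelial markers found (1189 to 1532 in the other 4), 640.0 and 736 for 9 of 9 smooth muscle and pericyte markers (887 to 1267), and 590 and 408 for 10 of 10 macrophage markers (721 to 939). Lymphoid markers (8 of 9 found) summed to 18.9 and 19.6, against 25.5 to 41.2. Neutrophil markers (4 of 7 found, with MPO at 0 in some libraries) summed to 99.6 and 292, against 10.4 to 53.7. S100A8 carried that sum (83.0 and 263, against 4.98 to 40.0), and S100A12 was also above, but CSF3R was at 1.19 and 2.61 against 2.52 to 10.9. Adipocyte markers (9 of 10 found) summed to 28489 and 37087, against 20806 to 36163 in the others. FABP4 held most of the sum in replicates 4 and 5 (20000 and 28926) and was at 10370 to 24010 in the others. Of the 9, LIPE (577 and 423, against 1046 to 1519), PNPLA2 (163 and 129.7, against 419.6 to 658) and PLIN1 (1351 and 1247, against 1506 to 2137) were below in both libraries, and CIDEC was above (892 and 856, against 391 to 647). Stromal and progenitor markers (9 of 9 found) summed to 11632 and 20374, against 16526 to 32429, and red cell markers (3 of 7 found) to 966 and 403, against 114 to 515. The part of these cells, of the named nuclear share and of the low mitochondrial share in the members' values was not tested.

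Within replicates 1, 2, 3 and 6, whose named nuclear shares were alike, the members had a more common order. Of the 10 genes, 8 were lowest in replicate 3, against 43.6% of all genes, with FOSB lowest in replicate 2 and IER3 lowest in replicate 1 as the exceptions. The count was 7 of 10 under median-centring, quantile normalization and removal of the length and GC trend. The shares of all genes were then 32.2%, 27.9% and 30.9%. Replicate 2 was highest for 6 of 10 (FOS, JUN, JUNB, ATF3, DUSP1 and ZFP36), against 31.8% of all genes. The counts of genes lowest in replicate 3 and highest in replicate 2 were also chosen after the values were seen, and with 4 pigs an order has no replicate. Over all 6 pigs, 4 of 10 members (JUN, ATF3, DUSP1 and ZFP36) were highest in replicate 2, against 27.0% of all genes, 3 in replicate 5 (FOS, JUNB and IER2), 2 in replicate 1 (FOSB and EGR1) and 1 in replicate 3 (IER3). None of the 10 was highest in replicate 4 or replicate 6. The shares of all genes highest in replicates 1, 3, 4, 5 and 6 were 22.4%, 11.6%, 7.72%, 11.6% and 19.6%. The lowest library was replicate 3 for 4 members, against 11.4% of all genes, replicate 4 for 3, against 25.1%, and replicate 5 for 3, against 41.2%.

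**Figure D3:**
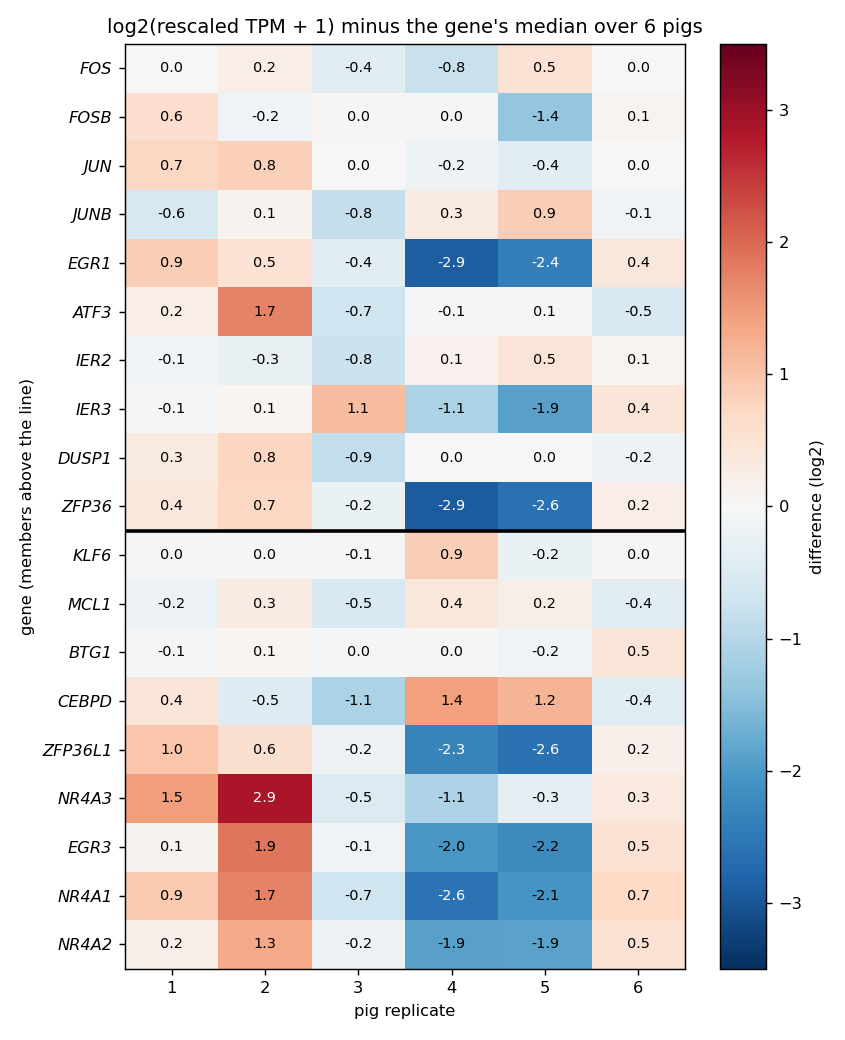
Difference of log2(rescaled TPM + 1) from the gene's own median over 6 pigs, by replicate, for the 10 members (above the line) and the 9 named other early response genes (below it), red where higher and blue where lower. EGR1 and ZFP36 are deepest blue in replicates 4 and 5 among the members, NR4A1, NR4A2, EGR3 and ZFP36L1 share that pattern, and replicate 2 is red for ATF3, NR4A3, EGR3 and NR4A1.

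The spread between pigs was wider for the members than for the median gene, by an amount that depended on the scaling. The median CV of rescaled TPM was 0.401 (0.274 to 0.798) over the members and 0.327 over all 12130 genes, with a jackknife standard error over pigs of 0.0750 for the members. It was 0.495 and 0.299 with median-centring and 0.554 and 0.2696 when corrected for length and GC content. The median ratio of the highest to the lowest pig was 3.58 and 2.40. A CV over 0.5 was found for 4 of 10 members, EGR1 (0.737), ATF3 (0.798), IER3 (0.650) and ZFP36 (0.713), against 22.9% of all genes, or 14.9% of the genes with a mean of at least 10, which all members exceeded. Without replicates 4 and 5 only ATF3 kept a CV over 0.5, and the median CV was 0.301 for the members and 0.188 for all genes. No share of all genes with a CV over 0.5 is given for these 4 libraries, so that count has no background.

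**Figure D4:**
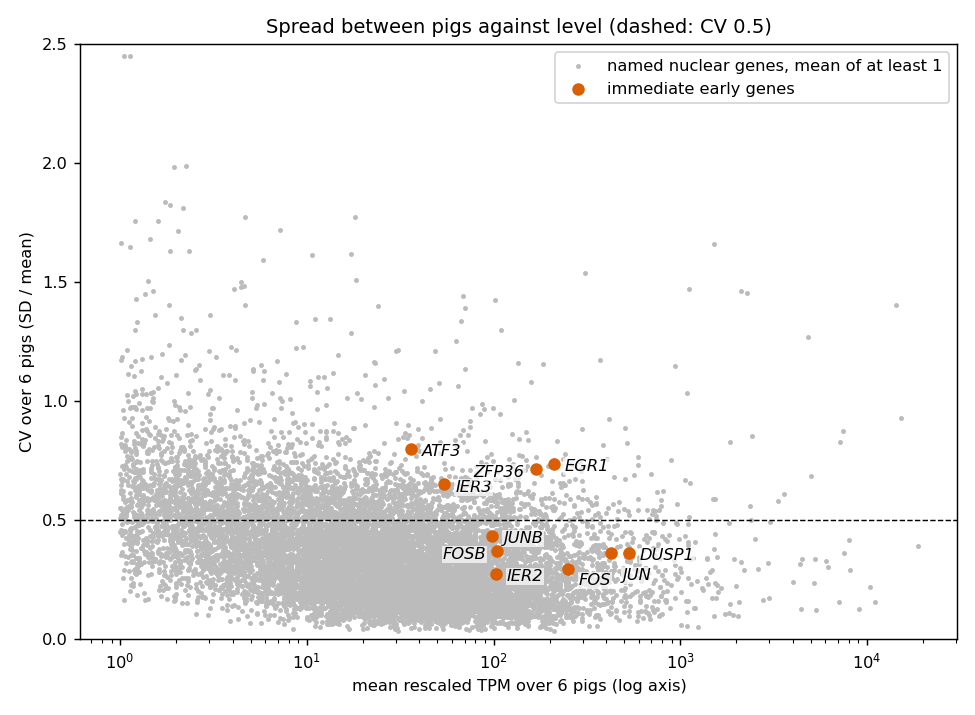
CV over 6 pigs against mean rescaled TPM (log axis) for 12130 named nuclear genes (grey) and the 10 members (orange), with a dashed line at a CV of 0.5. ATF3, EGR1, ZFP36 and IER3 lie above the line and the other 6 members between 0.274 and 0.433.

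Of 50 other early response genes listed, 44 had an ID and 43 reached a mean of 1 rescaled TPM, with means from 1.61 to 445. Their median CV was 0.454, against 0.327 over all genes, and 17 of 43 had a CV over 0.5 (22.9% of all genes). Replicate 2 was highest for 17 of 43 (27.0% of all genes). Among replicates 1, 2, 3 and 6, replicate 3 was lowest for 22 of 43 (43.6% of all genes). Replicates 4 and 5 were both below the other 4 pigs for 17 of 43 (50.1% of all genes) and both above for 6 of 43 (10.4%).

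The orphan nuclear receptors NR4A1, NR4A2 and NR4A3, induced by many of the same signals, and the EGR1 relative EGR3 had the largest CVs of that list along with ZFP36L1. NR4A1 was at 123, 217, 39.2, 9.85, 14.7 and 105 rescaled TPM in replicates 1 to 6, so that replicate 2 was highest and replicates 4 and 5 lowest. EGR3 was at 9.83, 35.3, 7.99, 1.39, 1.11 and 13.0, and NR4A2 at 15.4, 35.4, 11.8, 2.85, 2.96 and 19.9. Both had the same extremes as NR4A1. NR4A3 was at 38.6, 103, 9.33, 5.73, 10.3 and 17.1, with replicate 5 above replicate 3. ZFP36L1, a relative of ZFP36 that also destabilizes AU-rich mRNAs, was at 525, 394, 234, 52.2, 43.0 and 302, and like ZFP36 had its lowest values in replicates 4 and 5.

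The most abundant of the other early genes were KLF6, MCL1, BTG1, CEBPD and ZFP36L1, and the first 4 took other orders than ZFP36L1. KLF6, a Krüppel-like transcription factor, was at 732 rescaled TPM in replicate 4 and at 342 to 411 elsewhere. CEBPD, a transcription factor of early adipocyte differentiation and the acute phase, was at 544 and 454 in replicates 4 and 5 and at 90.9 to 265 in the other 4. MCL1, a survival protein with a short-lived mRNA, was at 285 to 546, with replicate 4 highest. BTG1, a growth inhibitor, was at 452 in replicate 6 and at 297 to 345 elsewhere.

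Of 24 genes listed as regulators of the members (SRF and its partners, CREB and ATF proteins, MAP kinases and NF-κB subunits), 20 had an ID. Their median CV was 0.281, 3 had a CV over 0.5 (22.9% of all genes), 9 were highest in replicate 2 (27.0% of all genes), and 12 had replicates 4 and 5 both below the others (50.1% of all genes). The most abundant were ATF1, a CREB relative (90.0 and 84.2 rescaled TPM in replicates 4 and 5, 207 to 235 elsewhere), the kinase RPS6KA3 (106 to 196) and the kinase MAPK9 (85.4 to 130). SRF itself was at 12.7 to 18.3 rescaled TPM in replicates 1, 2, 3 and 6, at 10.2 in replicate 5, and between these values in replicate 4. It is named here beside the CArG boxes and was chosen after its values were seen.

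Heat shock genes, a list that includes HSPA8, HSPD1 and HSPE1, were also highest in replicate 2, for 8 of 10 found of 12 listed, against 27.0% of all genes. Replicate 2 was also highest for 6 of the 7 endothelial markers found. The heat shock genes summed to a rescaled TPM of 8165 there and 3062 to 4673 in the other 5 pigs, and ATF3 was highest in the same library.

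The genes whose profile over the 6 pigs lay closest to the mean profile of the members were NEMP2, UIMC1, GNE, JARID2 and NCOA7. Likeness was the root mean square difference of centred log2(rescaled TPM + 1), which was 0.0406, 0.0502, 0.0510, 0.0630 and 0.0631 for these 5, against a median of 0.433 over 8856 genes. NEMP2, for example, was at 13.5, 16.4, 9.16, 6.69, 6.56 and 11.3 rescaled TPM. The members themselves lay 0.186 (JUN) to 1.05 (EGR1 and ZFP36) from their own mean profile, and JUN was the only one nearer to it than the median gene. With a pseudocount of 0.1, 3 of the 5 stayed among the 5 closest.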

How the data were processed

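Total RNA of 6 pig backfat samples was depleted of rRNA, and stranded libraries were sequenced by the authors. The authors deposited TPM per Ensembl gene. The submitters' processing notes name kallisto 0.43.0 and Sscrofa11.1, and whether the Ensembl release that the study cites elsewhere was behind this table is not stated. TPM keep no counts, so the depth is unknown and no count test or interval was used. Symbols were matched by ID (14857 of 25880), and TPM were rescaled to a total of 1000000 over 14844 named nuclear IDs, without the 13 mitochondrially encoded genes. With 1 group of pigs, no test was run and values are mean ± SD over replicates. The rat table was not used, and 0 columns of per-sample values were left unmapped.

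The background was the 12130 genes whose rescaled TPM averaged 1 or more. The members, gene lists and counts were chosen with earlier results of these data known. Named were all members, from the other early genes the 5 of highest mean and the 5 of largest CV, the 3 most abundant regulators, and the 5 genes (mean of at least 10) most like the members' mean profile with a pseudocount of 1. Alternatives were other scalings, other filters and leaving out libraries. Length and GC content, in 10 by 10 bins, came from RefSeq models of Sscrofa11.1 for 11250 of the genes (92.7%), including all 10 members. Some models are predicted, so starts may be off. Motif windows were 1000 bases of genome before the first coding base of the longest transcript. The scripts were tested on simulated data. Python 3.11.15, pandas 2.3.3, numpy 2.4.6, pysam 0.24.0 and matplotlib 3.10.9 were used.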

Additional observations from a re-analysis of the deposited data

Results flagged for a closer look

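In sets of 6 pig values, 1 library stood apart from the other 5 by more than Dixon's critical share of the range in 9 of 45 sets examined. For independent, unselected normal values chance marks about 1 in 20. These sets share libraries and genes, and some genes were picked for a large CV, so that rate cannot be set against the 9. Replicate 2 stood above the rest for ATF3 (94.2 rescaled TPM against 16.6 to 32.7, and 22.7 deposited TPM against 0.894 to 8.17), NR4A3 (103 rescaled TPM against 5.73 to 38.6) and EGR3 (35.3 against 1.11 to 13.0). It also did so for the summed rescaled TPM of the listed heat shock genes (8165 against 3062 to 4673). The same held for skeletal muscle markers (11.0 against 0.887 to 4.10, from 3 of 8 markers found, with TNNT3 at 0 in at least 1 library). KLF6 stood apart in replicate 4 (732 against 342 to 411), BTG1 in replicate 6 (452 against 297 to 345), and the summed neutrophil markers in replicate 5 (292 against 10.4 to 99.6). No cause of these values was tested.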

How the results depend on the processing

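With TPM as deposited, the members' median CV was 0.745 (0.699 over all genes), 10 had a CV over 0.5 (98.2% of all genes), the median ratio of highest to lowest pig was 17.6 (14.0 over all genes), 10 had replicates 4 and 5 both below the others and 0 had both above. The median CV was 0.495 with median-centring and 0.554 when corrected for length and GC content. Without replicates 4 and 5, the median CV was 0.301 (0.188 over all genes) and the median ratio was 1.96. A CV over 0.5 then remained for 1 member, a count given without a share of all genes. Leaving out 1 pig at a time gave a median ratio of 2.64 (without replicate 5) to 3.58 and a median CV of 0.365 to 0.452. Other filters on low values could not change the members' values, because every member had a mean above them. The mean level moved by over 1 SD for 10 of 10 members with deposited TPM and with quantile normalization, whose values are on other scales, and for 0 of 10 under the other scalings. No paired analysis was possible because the results come from no test and the replicate numbers of pigs and rats tie no animals together. The counts on replicates 4 and 5 and on replicates 1, 2, 3 and 6 were added after seeing the data. Unknown depth limits the precision of low values.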
